A study of Mus musculus with 9 samples.

Results

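Kinesins and cytoplasmic dyneins are the motors that carry cargo along microtubules, and the account below covers their genes in ribosome-associated RNA of parvalbumin inhibitory neurons (PV INs) of hippocampal CA3/CA2. Members were the protein-coding genes of the mouse mm9 annotation whose symbol begins with Kif and a digit, Kifc, Klc and a digit, Dync or Dynl, and that reached at least 1 CPM (a count scaled to the total of its library) in at least 1 sample. The symbol rule found 63 genes, and 48 of them passed the CPM minimum, 35 kinesin genes and 13 dynein genes, out of 15069 genes tested. Of the 48, 45 reached 1 CPM in samples of both groups, while Klc3, Kif19a and Kif20b did so in shRNA samples alone.

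The samples came from PV-Cre:Rpl22HA f/f mice, in which Cre made under the parvalbumin gene puts an HA tag on a ribosomal protein, so that RNA on the ribosomes of PV INs can be pulled down with an antibody. All mice were 2 months old at injection and their CA2/CA3 tissue was taken 2 weeks later. Lentivirus in the dentate gyrus (DG) carried a non-target shRNA in the 5 shNT samples and an shRNA against Ablim3 in the 4 shRNA samples, a knockdown that the study used to raise mossy fiber input to PV INs. Each sample pooled tissue of 6 mice of both sexes. The question for the motor genes is whether their ribosome-associated RNA differed between these conditions.

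Most kinesins walk toward the plus ends of microtubules, which in axons point to the terminal, and they move vesicle precursors, mitochondria and other cargo outward. Cytoplasmic dynein 1 walks the other way and returns endosomes and signals to the cell body. Kinesin-1 joins heavy chains (Kif5) with light chains (Klc) that bind cargo, and dynein 1 is built around a heavy chain with intermediate, light intermediate and light chains. Other kinesins divide chromosomes, shorten microtubules or serve cilia.

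Between 18281719 and 34578837 reads per sample were counted on genes. The summed level of 11 PV IN markers, among them Pvalb and Gad1, lay between 4913 and 8086 CPM in the shNT samples and between 2936 and 7082 CPM in the shRNA samples, and none of these markers was at 0. Astrocyte markers (9 genes) summed to 540.2 to 1018 CPM with shNT and 907 to 4713 CPM with shRNA. The highest sum was that of shRNA replicate 4, and all 9 markers had a positive log2 fold change (median 1.43). CA3/CA2 pyramidal neuron markers (8 genes) summed to 285 to 614 CPM with shNT and 774 to 969 CPM with shRNA, without overlap. Of these 8 markers 6 had a positive log2 fold change (median 0.71). DG granule cell markers (6 of 6 positive, median 1.12) and oligodendrocyte markers (8 of 8 positive, median 0.74) were also higher with shRNA on that scale, none of these lists had a marker at 0, and the part of these cell types in the values of the motor genes was not tested. shRNA replicate 4 also had the largest share of uniquely aligned reads outside annotated exons, 27.2%, against 9.76% to 19.8% in the other samples. A lower count in such bulk RNA cannot tell fewer cells of a type from less RNA per cell. Nothing in the labels says whether samples share a day of dissection, and p-values measure the spread between these pools.

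Reads were 50 bases long and only reads with a single place in the genome were counted, so the sequence of each motor gene sets how much of it could be counted. Of the 48 members, 32 had no 50-base window in their protein-coding transcripts that also occurs elsewhere in the mm9 genome, and in 5 more than 10% of windows were shared. These were Dynlt1a (83.0%), Kif5b (21.1%), Dynll1 (14.9%), Kif3c (12.6%) and Kif2a (10.6%). The Dynlt1 genes, which encode Tctex-type dynein light chains, lie as near-identical copies on chromosome 17. The first 60 coding bases of Dynlt1a and Dynlt1b are shown because they explain what the counts of this family can hold, with the base at which Dynlt1b differs in capitals.
Dynlt1a: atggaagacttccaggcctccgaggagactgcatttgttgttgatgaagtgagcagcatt
Dynlt1b: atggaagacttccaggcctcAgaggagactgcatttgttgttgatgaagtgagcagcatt
Dynlt1c, Dynlt1e and Dynlt1f are identical to Dynlt1a over all 342 coding bases, and Dynlt1b differs from them at a single base. Dynlt1c, Dynlt1e and Dynlt1f had 0 counts in every sample, Dynlt1a had 0.767 to 1.51 CPM, and Dynlt1b stayed below the CPM minimum with 119 counts in all. All windows of Dynlt1c, Dynlt1e and Dynlt1f were shared, so a count of 0 there gives no level, and the level of Dynlt1 light chains was not measured by these counts. The LC8-type light chains Dynll1 and Dynll2 are shown for contrast, since these paralogs can be told apart by single reads. Capitals mark bases of Dynll2 that differ from Dynll1.
Dynll1: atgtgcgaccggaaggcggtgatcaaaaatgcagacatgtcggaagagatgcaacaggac
Dynll2: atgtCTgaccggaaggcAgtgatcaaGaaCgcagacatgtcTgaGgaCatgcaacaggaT
Their coding sequences match at 219 of 270 bases and share no identical run longer than 16 bases. The longest identical run was 23 bases between Kif5a and Kif5c and 33 bases between Kif1a and Kif1b, also below the length of a read.

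Levels in the shNT samples describe the whole pulldown, in which markers of other cell types were counted too. They cannot be assigned to PV INs alone. Levels of different genes were compared per length, as normalized CPM divided by the kilobases of exon (RPKM). The highest level was that of Dynlrb1, a roadblock-type dynein light chain, with 384 ± 97.3 RPKM (means are given ± SD, over n = 5 shNT and n = 4 shRNA samples throughout). Klc1, the main neuronal kinesin light chain, followed with 268 ± 33.0 RPKM and Dynlt3, another Tctex-type light chain, with 198 ± 25.8 RPKM. Dynll2 had 116 ± 16.2 RPKM and the heavy chain Kif5c 108 ± 12.3 RPKM. Kifc2, a minus-end kinesin of neurons, had 85.4 ± 15.2 RPKM, Kif5a 71.9 ± 25.0 RPKM and Kif1a, the carrier of synaptic vesicle precursors, 65.4 ± 14.4 RPKM. Kif5b, the kinesin-1 heavy chain found in most cell types, was lower at 25.0 ± 1.84 RPKM. In the order of the 48 levels, the ranges over the 5 shNT samples overlapped for 44 of 47 neighboring pairs, and Dynlt3 stood apart from Dynll2, Dync1i1 from Kif21a, and Dync2h1 from Kif9. The dynein 1 heavy chain Dync1h1 had 9.49 ± 6.71 RPKM, against 57.6 ± 8.04 RPKM for the intermediate chain Dync1i1 and 68.1 ± 9.42 RPKM for the light intermediate chain Dync1li2. Its exons sum to 15.7 kb, the longest but 2 of the members.

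**Figure D1:**
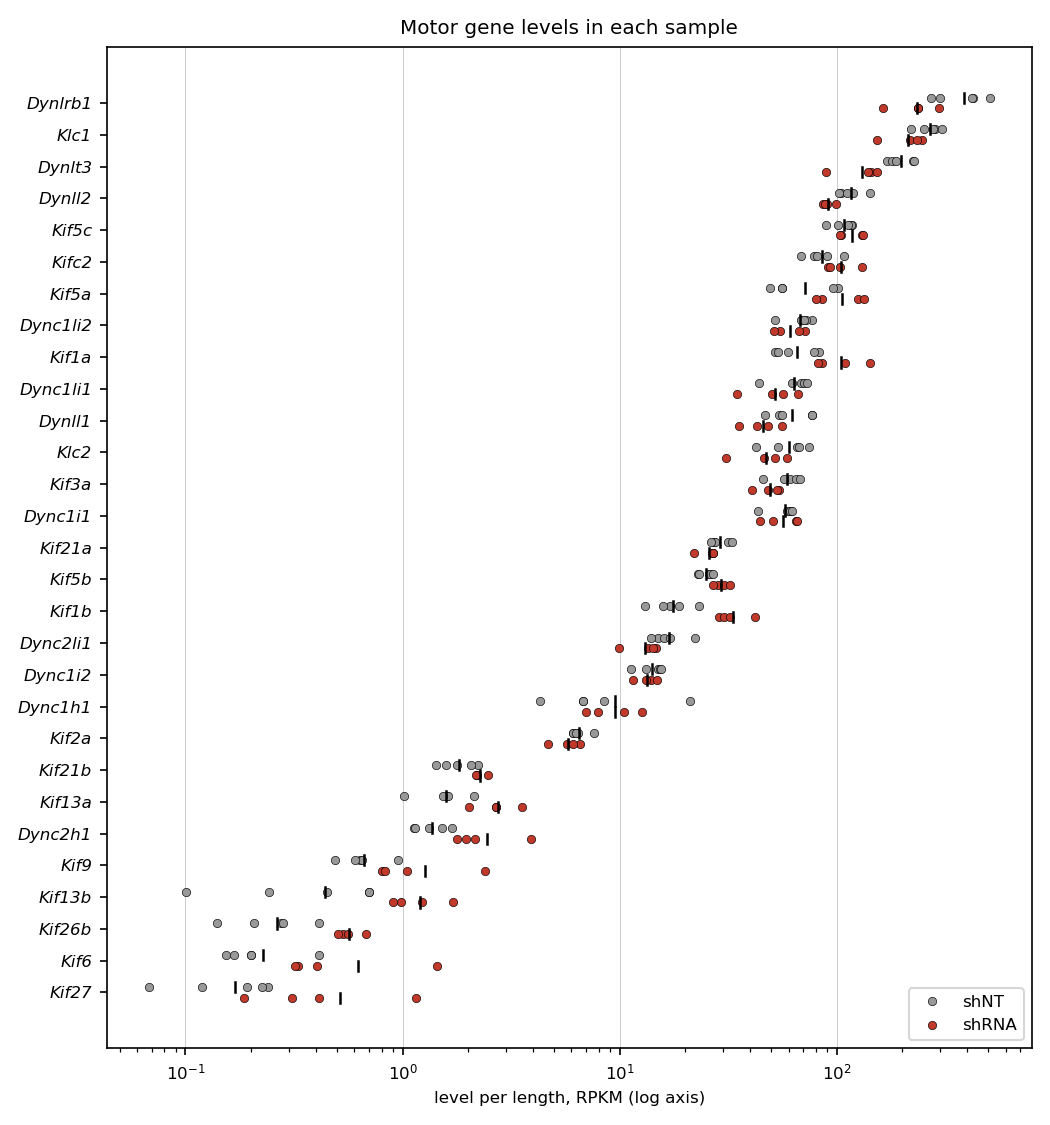
Level per length of the 29 motor genes named by rule, in RPKM on a log axis, with each shNT sample in grey, each shRNA sample in red and the group mean as a black bar. Light chains such as Dynlrb1, Klc1 and Dynlt3 are at the top with lower shRNA means, and Kif1b shows shRNA samples that all lie above the shNT samples.

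In the comparison of the conditions, 1 of the 48 motor genes was called, Kif1b, which rose in the shRNA samples, and 0 were called lower. A gene was called at a false discovery rate (FDR) under 0.05 over all 15069 genes and a change of at least 1.5-fold with edgeR's quasi-likelihood test, and by that rule 1.74% of all genes tested were higher and 0.0133% lower. At an FDR under 0.1 and 1.5-fold, 9 motor genes were higher and 2 lower, beside 12.7% and 4.26% of all genes tested, and the counts were 0 and 0 with the exon length trend removed. At an unadjusted p under 0.05 there were 10 higher and 4 lower, beside 20.7% and 13.4% of all genes. The shares among motor genes were thus near those of all genes in each direction, and what follows describes which motors stood where. On the log2 scale the 35 kinesins had a median difference of 0.50 (29 positive) and the 13 dynein genes one of -0.15 (10 negative), and the median over all genes tested was 0.11. Klc3, Kif19a and Kif20b, whose sign the CPM minimum favors, are among the positive kinesins, and without them 26 of 32 kinesins were positive (median 0.38). Among the 30 motor genes with a mean of at least 10 CPM, 15 were positive and 15 negative (median -0.013), and among the 18 with less, 17 were positive (median 0.81), or 14 of 15 (median 0.88) without those 3 genes. The groups did not overlap in 7 motor genes, with shRNA above shNT in 5 (8.97% of all genes) and below it in 2 (6.68%).

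**Figure D2:**
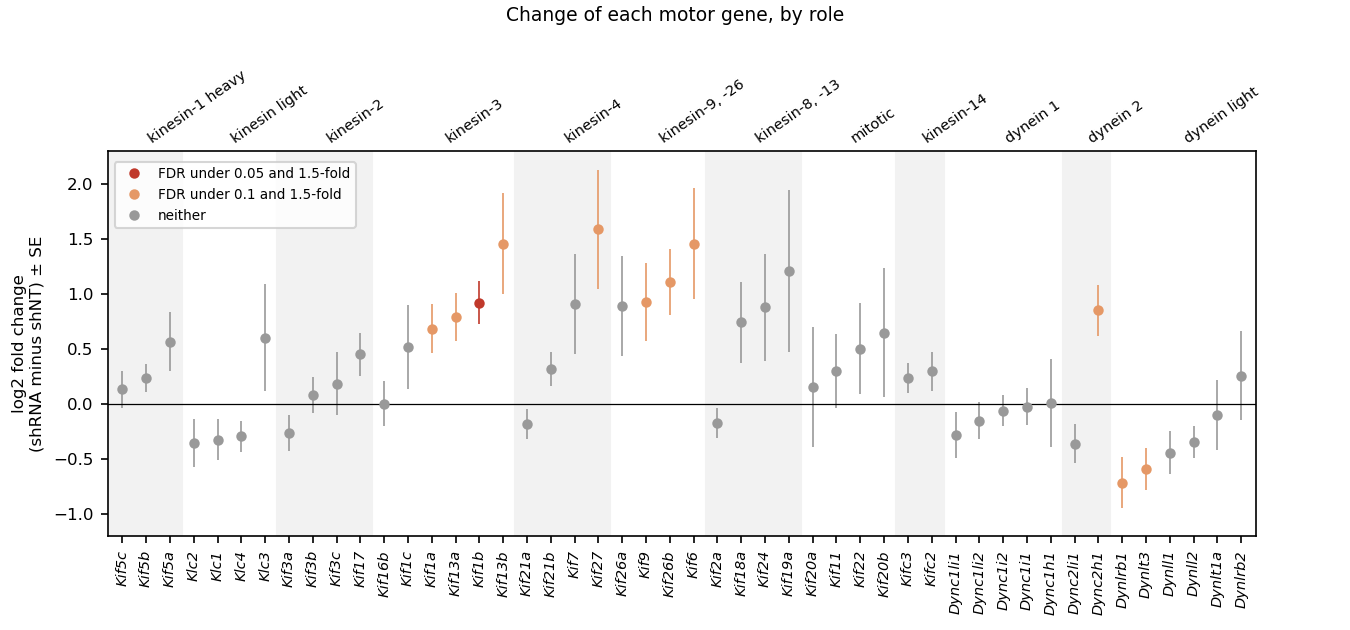
Log2 fold change (shRNA minus shNT) of the 48 motor genes with its standard error, ordered by role, from the fit with 5 shNT and 4 shRNA samples. Kif1b in red is the gene called at an FDR under 0.05 and 1.5-fold, the orange points passed an FDR under 0.1 with 1.5-fold, and most dynein light chains and kinesin light chains lie below 0.

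Kif1b (ENSMUSG00000063077, chromosome 4 from 148550428 to 148681802, minus strand) is a kinesin-3 whose isoforms carry mitochondria and synaptic vesicle precursors. In the order of the replicates, its level was 409.6, 329.5, 301, 230.3 and 280.3 CPM with shNT and 506, 533, 738 and 568 CPM with shRNA. The lowest shRNA sample thus lay above the highest shNT sample. The mean went from 310.1 ± 66.4 to 586 ± 104 CPM, 0.92 higher on the log2 scale (standard error 0.19), and edgeR's quasi-likelihood test gave FDR = 0.0433 after Benjamini-Hochberg adjustment. The direction held with each sample left out in turn (log2 fold change 0.70 to 1.04), but the call held only without shNT replicate 1 or 2 or shRNA replicate 2, and the FDR reached 0.169 without another sample. With the trend of level with exon length removed in each sample, the log2 fold change was 0.30 (FDR = 0.255, edgeR).

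**Figure D3:**
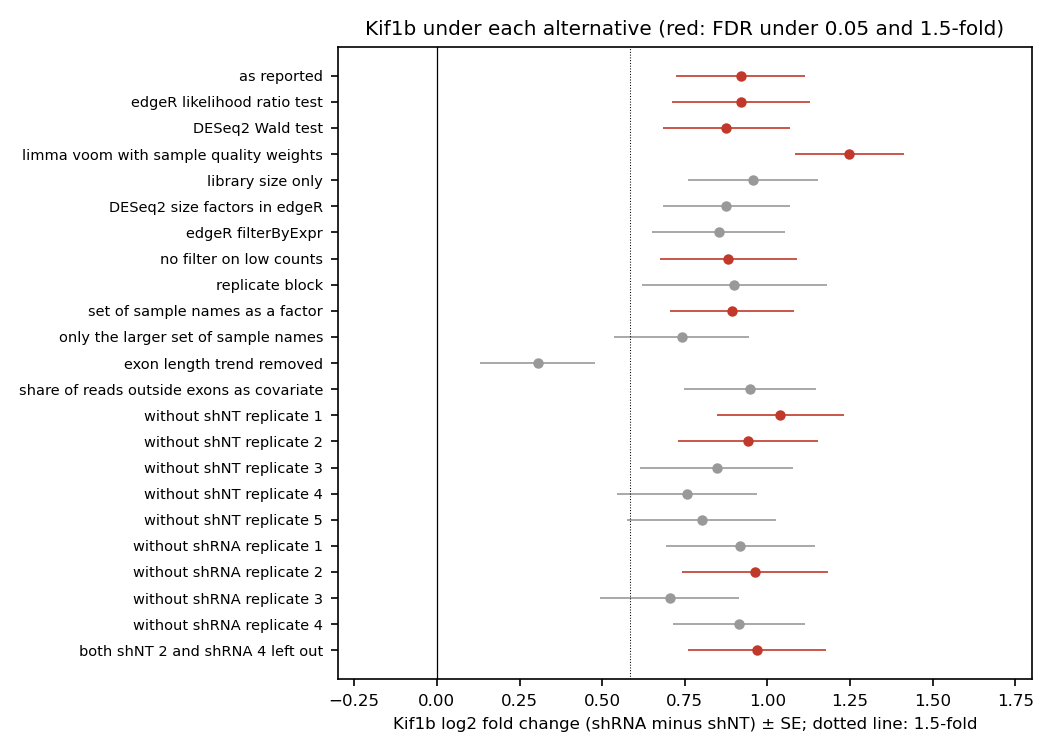
Log2 fold change of Kif1b with its standard error under the reported analysis and each alternative that changes the fit, with red points for an FDR under 0.05 and at least 1.5-fold (dotted line). All values are above 0, and the lowest, 0.30, is that with the exon length trend removed.

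Kif1b has 17.6 kb of exon, the longest of the members, and the differences of all genes ran with exon length. Over all genes tested, the median log2 fold change was -0.47 for 758 genes under 1 kb, -0.27 for 2316 genes with 1 to 2 kb of exon, 0.014 for 5361 genes with 2 to 4 kb, 0.27 for 5029 genes with 4 to 8 kb and 0.49 for 1583 genes over 8 kb. The motor genes in the same classes had medians of 0.077 (2 genes, the other way from all genes), -0.54 (2 genes), -0.028 (11 genes), 0.45 (25 genes) and 0.71 (8 genes). Of the 33 motor genes over 4 kb, 26 had a positive log2 fold change, and of the 15 at or under 4 kb, 6 did. With the trend removed, the median was 0.27 for kinesins and -0.34 for dynein genes, 0 motor genes were called, and 0 of all genes tested were, with 0.0849 as the lowest FDR (edgeR quasi-likelihood test). The part of exon length in the values of single genes was not tested.

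**Figure D4:**
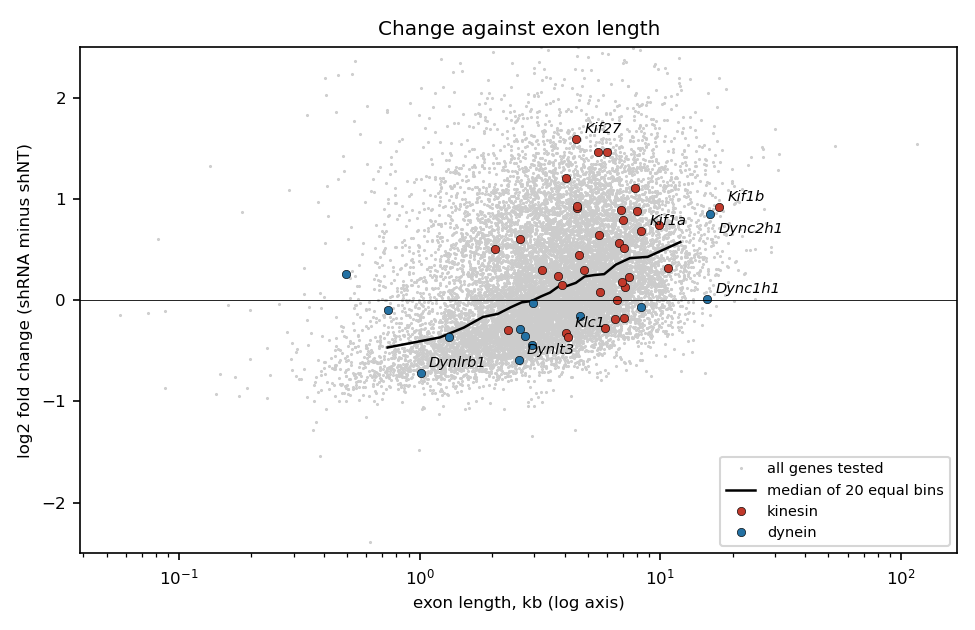
Log2 fold change (shRNA minus shNT) against exon length in kb (log axis) for all genes tested (grey), with the median in 20 bins of equal gene number (line), kinesins in red and dynein genes in blue. The line climbs with length, Kif1b and Dync2h1 lie above its right end, Dynlrb1 lies below its left part, and 55 genes lie outside the plotted range.

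The other kinesin-3 genes tested did not pass the call. Their log2 fold changes were positive, except that Kif16b lay at almost 0. Kif1a (chromosome 1 from 94912033 to 94998442) had 692, 433, 651, 446 and 496 CPM with shNT and 711, 909, 1189.8 and 683 CPM with shRNA. The groups overlapped only in that the lowest shRNA sample lay just below the highest shNT sample. Its log2 fold change was 0.68 (SE 0.22, FDR = 0.0751, edgeR), with a range of 0.42 to 0.79 when single samples were left out, and it was 0.32 (FDR = 0.314) with the exon length trend removed. Kif13a, which moves endosomal cargo, had 7.12 to 15.01 CPM (median 11.2) with shNT and 14.2, 18.8, 18.9 and 25.0 CPM with shRNA, a log2 fold change of 0.79 (FDR = 0.0645, edgeR). Here shRNA replicate 2 lay below shNT replicate 1, and the other shRNA samples lay above all shNT samples. Kif13b was low, at 2.42 ± 1.48 CPM and 6.68 ± 2.01 CPM, a log2 fold change of 1.46 (FDR = 0.0717, edgeR) without overlap between the groups. The early endosome motor Kif16b had 14.02 CPM and 14.04 CPM, with a log2 fold change of 0.00079. With the exon length trend removed, the log2 fold change was 0.46 for Kif13a (FDR = 0.13, edgeR) and 1.21 for Kif13b (FDR = 0.12, edgeR). It was -0.30 for Kif16b.

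The kinesin-1 heavy chains, which drive much of fast axonal transport, had values that overlapped between the conditions. Kif5a had 684, 332, 646, 374 and 377 CPM in the shNT samples and 574, 846, 899 and 539 CPM in the shRNA samples. shNT replicates 1 and 3 lay well above the other shNT samples, and shRNA replicates 1 and 4 lay between these sets. Its log2 fold change was 0.56 (SE 0.27, FDR = 0.161, edgeR). Kif5c had 768 ± 87.7 CPM and 841 ± 112 CPM with a log2 fold change of 0.13, and Kif5b 185 ± 13.6 and 218 ± 17.5 CPM with 0.23. Neither passed the test (FDR = 0.588 and 0.216, edgeR). In Kif5b only shRNA replicate 2, with 198.8 CPM, lay below the highest shNT sample, with 199.6 CPM. With the exon length trend removed the signs of Kif5c (-0.22) and Kif5b (-0.14) turned. Relative to Kif5c per length, Kif5a had a log2 ratio of -1.01 to -0.21 in the shNT samples and of -0.37 to 0.021 in the shRNA samples, which overlap.

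The kinesin light chains that link these motors to cargo had negative log2 fold changes for 3 of the 4 genes tested, and 0 passed the test. Klc1 had 1025, 898, 1156, 1134 and 1248 CPM with shNT and 889, 1010.3, 957 and 625 CPM with shRNA. It was lowest in shRNA replicate 4, and its log2 fold change of -0.33 (SE 0.19, FDR = 0.233, edgeR) was -0.21 without that sample. Klc2 had 250 ± 51.9 and 195 ± 49.2 CPM, a log2 fold change of -0.36 (FDR = 0.253, edgeR). Klc4 had -0.29 on that scale, and Klc3, at or below 1.35 CPM, had 0.60. In each of the 9 samples Klc1 was higher than Klc2 per length, by 1.91 to 2.38 on the log2 scale.

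Kinesin-2, a heterotrimer of Kif3a, Kif3b or Kif3c and the adaptor Kifap3, serves axons and cilia. Kif3a had 348 ± 50.4 and 289 ± 35.6 CPM, a log2 fold change of -0.27 (FDR = 0.252, edgeR). Kif3b (0.079) and Kif3c (0.18) lay close to 0, and Kifap3 had -0.17 (FDR = 0.599, edgeR). Kif17, a dendritic motor of the same family with 11.97 ± 3.02 and 16.3 ± 0.688 CPM, had shRNA samples that all lay above the shNT samples and a log2 fold change of 0.45 (FDR = 0.128, edgeR). Kif17 was singled out after its values were seen. Of the kinesin-4 genes, Kif21a had 189 ± 18.5 and 167 ± 15.7 CPM (log2 fold change -0.18) and Kif21b 19.7 ± 3.59 and 24.5 ± 1.54 CPM (0.32), and 0 passed. The log2 ratio of Kif21a to Kif21b per length ran from 3.74 to 4.38 with shNT and from 3.33 to 3.62 with shRNA. The groups did not overlap in this ratio, for which no test was made. Of the paralog pairs for which such a ratio was taken, only this one had no overlap. Kif21a has 6.5 kb of exon and Kif21b 10.8 kb, and the part of exon length in the ratio was not tested. Kif2a, which takes tubulin off microtubule ends, had 45.9 ± 4.33 and 40.6 ± 5.56 CPM (log2 fold change -0.18, FDR = 0.355, edgeR), with exons of another gene over 17.4% of its exon length. Kifc2 had 275 ± 48.8 and 337 ± 58.7 CPM (log2 fold change 0.30, FDR = 0.251, edgeR).

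Several low kinesins had the largest log2 fold changes, and in those known from motile cilia these were smaller without shRNA replicate 4. Kif6, Kif9 and Kif27 belong to cilia or their assembly. Kif6 had 1.21, 2.48, 0.926, 1.21 and 1.00 CPM with shNT and 1.99, 1.92, 2.43 and 8.66 CPM with shRNA. Its log2 fold change was 1.46 (FDR = 0.0822, edgeR) and 0.60 without shRNA replicate 4. Kif9 had 2.20 to 4.30 CPM (median 2.89) with shNT and 4.72, 3.62, 3.75 and 10.9 CPM with shRNA, with a log2 fold change of 0.93 that was 0.41 without that replicate. Kif27 had 0.303 to 1.07 CPM (median 0.858) with shNT and 0.831, 1.39, 1.85 and 5.14 CPM with shRNA, with 1.59 and 0.80. In all 3 genes shRNA replicate 4 stood above the other samples. The 7 markers of ependymal and other ciliated cells summed to 22.5 to 33.8 CPM in the shNT samples and 19.2 to 101.5 CPM in the shRNA samples, with the highest sum in shRNA replicate 4, and none was at 0. Foxj1, the transcription factor of motile cilia, had 36.4 CPM in that sample against 5.65 to 8.996 CPM in the others. The part of ciliated cells in the 3 kinesins was not tested. Kif26b, an atypical kinesin, differed in that its shRNA samples (4.15, 3.94, 5.33 and 4.37 CPM) were alike and all above the shNT samples (1.10 to 3.24 CPM, median 2.16). Its log2 fold change was 1.11 (SE 0.30, FDR = 0.063, edgeR) and ranged from 0.86 to 1.33 when single samples were left out, with exons of another gene over 11.6% of its exon length.

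**Figure D5:**
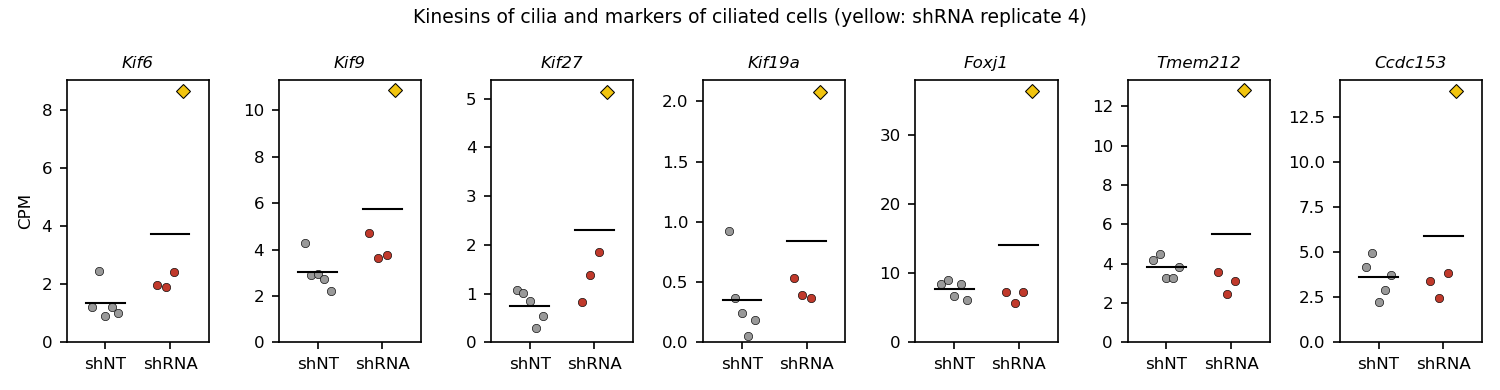
Normalized CPM in each sample of Kif6, Kif9, Kif27 and Kif19a and of Foxj1, Tmem212 and Ccdc153, markers of ciliated cells, with group means as bars and shRNA replicate 4 as a yellow diamond. The yellow diamond is the highest sample in each panel, which for Kif19a the CPM minimum had already set, since that sample alone reached it.

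The kinesins of cell division were near the detection limit. Kif11, Kif20a, Kif20b and Kif22 had means of 0.413 to 1.84 CPM with shNT and 0.636 to 2.26 CPM with shRNA, and 0 passed the test. Kif23 and Kif15 stayed under the CPM minimum. The 15 genes under that minimum included 5 with 0 counts in all samples (Dynlt1c, Dynlt1e, Dynlt1f, Kif2b and Kif4-ps), and the other 10 reached at most 0.930 CPM in any sample. Dividing cell markers (10 genes) summed to 4.91 to 10.6 CPM with shNT and 7.80 to 14.4 CPM with shRNA.

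Dynein 1 subunits outside the light chains had log2 fold changes between -0.29 and 0.0084, and 0 were called. Dync1h1 had 106, 332, 67.2, 106 and 132 CPM in the shNT samples and 125, 110.2, 164 and 199 CPM in the shRNA samples. shNT replicate 2 was far above the other shNT samples, which widened the standard error to 0.40 around a log2 fold change of 0.0084 (FDR = 0.9904, edgeR), and without this replicate the log2 fold change was 0.54. The value was as low as -0.27 without shNT replicate 3, so its sign rested on single samples. Dync1i1, the intermediate chain of neurons, had 171 ± 23.9 and 168 ± 30.6 CPM (-0.028), and Dync1i2, its widely expressed paralog, 116 ± 14.8 and 111 ± 11.8 CPM (-0.066). Dync1li1 had 166 ± 30.6 and 136 ± 35.04 CPM (-0.29) and Dync1li2 316 ± 43.6 and 283 ± 44.5 CPM (-0.15), with FDR values of 0.338 and 0.521 (edgeR). These differences were within the spread between samples. The median log2 fold change was -0.066 for these 5 genes and -0.40 for the 6 dynein light chains tested. With the exon length trend removed, the medians were -0.34 and -0.35, so the 2 groups did not stand apart there.

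Dynein light chains are small subunits that also occur outside the motor. Of the 6 tested 5 had a negative log2 fold change, and those of Dynlrb1, Dynlt3 and Dynll1 were the lowest of the motor genes. Dynlt1a (-0.10), most of whose windows were shared, is among the negative ones. Dynlrb1 (ENSMUSG00000047459, chromosome 2 from 155062269 to 155076013) had 275, 427, 301, 422 and 513 CPM with shNT and 299, 239, 239 and 165 CPM with shRNA. Its groups overlapped in shNT replicate 1 and shRNA replicate 1. The log2 fold change was -0.72 (SE 0.23, FDR = 0.0725, edgeR) and between -0.91 and -0.61 with each sample left out, and it was -0.36 (FDR = 0.174) with the exon length trend removed. Dynlt3 (ENSMUSG00000031176, chromosome X from 9231393 to 9240129) had 441, 465, 485, 579 and 584 CPM with shNT and 372, 393, 359 and 229.9 CPM with shRNA. All its shRNA samples lay below all shNT samples, with a log2 fold change of -0.59 (SE 0.19, FDR = 0.073, edgeR) that was -0.55 with the exon length trend removed. Dynll2 had 281 to 390.2 CPM (median 305) against 272, 237, 246 and 242 CPM, also without overlap, and a log2 fold change of -0.35 (FDR = 0.124, edgeR). Dynll1 had 182 ± 40.5 and 133 ± 25.2 CPM, with -0.44 (FDR = 0.136, edgeR). Dynlrb2, a paralog known from cilia, had 1.34 to 3.72 CPM in the shNT samples and 2.19, 1.67, 1.69 and 4.92 CPM in the shRNA samples, highest in shRNA replicate 4. All 11 PV IN markers had a negative log2 fold change as well (median -0.32), and their part in the values of the light chains was not tested.

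Dynein 2 returns cargo within cilia. Its heavy chain Dync2h1 (chromosome 9 from 6928503 to 7184446, 16.2 kb of exon) had 24.5, 27.4, 18.2, 18.5 and 21.5 CPM with shNT and 34.9, 28.8, 31.7 and 63.4 CPM with shRNA. All shRNA samples lay above the shNT samples, and shRNA replicate 4 was the highest. The log2 fold change was 0.85 (SE 0.24, FDR = 0.063, edgeR), 0.50 without shRNA replicate 4 and 0.20 with the exon length trend removed. The light intermediate chain Dync2li1, with 1.32 kb of exon, had 22.3 ± 4.26 and 17.3 ± 2.85 CPM and a log2 fold change of -0.36 (FDR = 0.169, edgeR).

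Partners of the motors were read from the same fit. Of 12 dynactin genes, which make up the complex that ties dynein to cargo, 10 were negative (median -0.31) and 0 were called. Dctn3, with 291 ± 62 and 184 ± 35.1 CPM, had a log2 fold change of -0.66 (FDR = 0.0687, edgeR). The large subunit Dctn1 had 350.0 ± 109 and 403 ± 103 CPM with 0.20. With the exon length trend removed, the log2 fold change was -0.31 for Dctn3 and -0.087 for Dctn1. Of 13 dynein regulators and activating adaptors 9 were positive (median 0.36) and 0 were called. At an FDR under 0.1 and 1.5-fold (edgeR) 4 of the 13 were higher, beside 12.7% of all genes tested. They were Bicd2 (0.70, FDR = 0.0766), Hook1 (0.80, FDR = 0.0708) and Hap1 (0.78, FDR = 0.066), adaptors that join dynein to cargo, and Ninl (0.93, FDR = 0.0503). Hap1 had 249 CPM in shRNA replicate 4 against 113 to 124 CPM in the other shRNA samples. Hook1 had 87.0 CPM there against 37.2 to 59.5 CPM, with overlap between the groups. With the exon length trend removed, the log2 fold changes were 0.43 for Bicd2, 0.39 for Hook1, 0.65 for Hap1 and 0.65 for Ninl. Pafah1b1, the Lis1 gene, had -0.13 in the main fit. Of 19 kinesin cargo adaptors 14 were positive (median 0.17) and 0 passed an FDR under 0.1 with 1.5-fold. Among them the mitochondrial adaptor Trak2 had the highest value, 0.58, which was 0.27 with the exon length trend removed.

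The promoters of Kif1b and Kif1a, higher in the shRNA samples, and of Dynlrb1 and Dynlt3, lower there, are shown as those of 4 well-expressed members with opposite signs. Each line gives the 250 bases before 1 RefSeq start, that at or next to the annotated start of the gene, placed on mm9 by exact match and written 5′ to 3′ along the gene. Capitals mark TGACG, the core of the cAMP response element, on either strand.
Kif1b, chr4:148681808-148682057, minus strand: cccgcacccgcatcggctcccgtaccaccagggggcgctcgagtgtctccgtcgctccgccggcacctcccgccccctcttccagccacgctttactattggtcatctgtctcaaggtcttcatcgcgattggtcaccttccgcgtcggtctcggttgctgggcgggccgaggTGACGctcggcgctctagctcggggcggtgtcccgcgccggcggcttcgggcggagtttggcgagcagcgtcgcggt
Kif1a, chr1:94998452-94998701, minus strand: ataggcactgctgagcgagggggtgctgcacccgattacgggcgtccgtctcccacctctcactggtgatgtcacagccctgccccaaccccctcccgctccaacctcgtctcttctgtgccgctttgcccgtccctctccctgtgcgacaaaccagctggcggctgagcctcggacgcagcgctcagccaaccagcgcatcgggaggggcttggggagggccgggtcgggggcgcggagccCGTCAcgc
Dynlrb1, chr2:155062019-155062268, plus strand: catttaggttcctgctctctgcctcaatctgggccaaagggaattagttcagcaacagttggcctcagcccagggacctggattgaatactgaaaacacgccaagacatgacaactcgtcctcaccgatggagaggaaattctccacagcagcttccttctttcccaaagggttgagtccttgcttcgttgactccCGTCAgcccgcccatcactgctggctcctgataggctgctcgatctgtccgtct
Dynlt3, chrX:9240110-9240359, minus strand: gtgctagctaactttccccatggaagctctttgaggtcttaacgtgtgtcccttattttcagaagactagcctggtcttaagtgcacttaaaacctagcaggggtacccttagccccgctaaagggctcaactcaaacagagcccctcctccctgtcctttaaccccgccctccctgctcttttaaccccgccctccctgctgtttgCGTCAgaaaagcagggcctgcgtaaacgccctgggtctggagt
Each of these 4 windows holds a single TGACG. Kif1a has a second RefSeq start, with the window chr1:94979058-94979307, which holds no TGACG and a single TGACAG, and second starts of Kif1b and Dynlrb1 overlap the windows shown and hold a single TGACG each. It was found in 14 of 35 members with a RefSeq promoter and in 17.9% of 27025 promoters of that length. The members' promoters had a median GC content of 64.4%, against 52.0% over all promoters. Motifs searched besides it were TGACGTCA, TGACAG (a core of Meis factors) and TGANTCA, each on both strands, which none of the 4 printed windows held, while 1.62%, 16% and 6.87% of all promoters did. TGACG is part of TGACGTCA. The motifs were chosen after the levels were seen, and a match is a description of sequence only.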

How the data were processed

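RNA on HA-tagged ribosomes was precipitated from CA2/CA3 tissue and made into libraries with the Clontech SMARTer v4 kit, read at 50 bases. The authors mapped the reads with STAR (mm9 transcriptome), counted those with a unique place on genes, ignoring strand, in HTSeq 0.6.0, and deposited unnormalized counts. Their annotation is not given in the sources used here. GENCODE annotation of mm9 gave names, positions and exon lengths and named 37205 of 37620 identifiers, and 22 list genes were matched by older symbols. HTSeq lines that name no gene were kept out (9.76% to 27.2% of reads outside exons).

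Analyses used R 4.3.3. A gene was kept if 1 CPM was reached in any sample (15069 kept, 22551 removed), the minimum in the study's methods, which print it without its comparison sign. The main test was edgeR 4.0.16 (TMM, quasi-likelihood, condition as the only term, 5 shNT against 4 shRNA samples) with Benjamini-Hochberg adjustment over the genes kept. DESeq2 1.42.0 and limma 3.58.1 were alternatives, with other normalizations, filters, covariates, removal of the exon length trend, and single samples left out. No samples had identical counts. With 18281719 to 34578837 gene counts per sample, counting error is small except near 1 CPM. Genes were named by rule: called members, members at an FDR under 0.1 with 1.5-fold, the 8 highest per length, the 5 highest and 5 lowest differences among members with at least 5 CPM, a set of textbook transport subunits, and Pafah1b1, Dctn1 and Kifap3. Other genes named were chosen after their values were seen. The fits were tested on simulated data. The members and lists were chosen with earlier results of these data known.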

Additional observations from a re-analysis of the deposited data

Results flagged for a closer look

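Dixon's criterion for a sample that stands apart within its group was applied to 58 groups of values of the named motor genes and met in 8. Chance alone meets it in about 1 of 20 groups, here 2.9. shNT replicate 2 stood apart in 3 genes, with 332 CPM of Dync1h1 against 67.2 to 132 CPM in the other shNT samples, 129 CPM of Dync1i1 against 176 to 185 CPM, and 2.48 CPM of Kif6 against 0.926 to 1.21 CPM. shRNA replicate 4 stood apart in 3 genes, with 144 CPM of Kif21a against 173 to 176 CPM in the other shRNA samples, 8.66 CPM of Kif6 against 1.92 to 2.43 CPM, and 10.9 CPM of Kif9 against 3.62 to 4.72 CPM. shRNA replicate 3 had 26.8 CPM of Kif21b against 23.7 to 23.9 CPM, a small distance beside the spread of that gene in the shNT samples. shNT replicate 5 had 53.5 CPM of Kif2a against 43.1 to 45.3 CPM. The reads outside annotated exons made up 18.6% in shNT replicate 2 and 27.2% in shRNA replicate 4, and their part in these values was not tested.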

How the results depend on the processing

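The reported analysis called 1 motor gene higher and 0 lower. Over the 23 alternatives, which include each sample left out, Kif1b had a positive log2 fold change in each and was called in 10. edgeR's likelihood ratio test and DESeq2 each called 8 higher (Kif1b, Kif1a, Kif13a, Kif13b, Kif26b, Kif27, Kif6 and Dync2h1) and 2 lower (Dynlrb1 and Dynlt3), beside 11.2% and 3.6% of all genes by the former and 10.2% and 5.53% by the latter. limma voom with sample quality weights called 11 and 1, beside 15.3% and 4.1%. The count of higher genes was 0 with library size only, DESeq2 size factors, filterByExpr, the larger set of sample names (YTa31) alone, the exon length trend removed or the outside-exon read share as a covariate. It was 2 without both shNT replicate 2 and shRNA replicate 4, a choice made after seeing the data (4.75% of all genes), while single samples left out gave 0 to 3 higher and 0 to 1 lower, with the most without shNT replicate 1 (6.68% and 2.72% of all genes). At an FDR under 0.1 and 1.5-fold, the 9 higher and 2 lower genes became 0 and 0 in the larger set of names and with the length trend removed, 5 and 0 with the set of names as a factor or the covariate, and 0 to 10 and 0 to 2 with single samples left out (0 and 0 without shNT replicate 4 or 5 or shRNA replicate 3, 2 and 0 without shRNA replicate 4, 4 and 2 without shNT replicate 3). The lower count was 1 with limma voom or library size only and 0 without both samples. With library size only, 0 of all genes passed at an FDR under 0.05. Samples with the same replicate number also share their set of sample names. Correlations of deviations between them were -0.27, -0.64, 0.49 and -0.18, and with such mixed signs they do not settle whether these samples are pairs. With the replicate numbers as a block 0 motor genes were called higher and 0 lower (29 of all genes higher). In that fit 0 and 0 passed an FDR under 0.1.

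The median log2 fold change of motor genes, 0.25, was 0.064 in the larger set of names, 0.11 with the length trend removed and 0.13 with the covariate, and that of kinesins, 0.50, was 0.15, 0.27 and 0.28. With samples left out these medians ran from 0.15 to 0.29 and from 0.26 to 0.54. The dynein median of -0.15 was -0.34 with the length trend removed. Signs turned in genes near 0. Dync1h1 was -0.049 with DESeq2 and with DESeq2 size factors, -0.075 with filterByExpr, -0.033 with no filter, -0.39 in the larger set, -0.58 with the length trend removed, -0.34 with the covariate and -0.27 to 0.54 with samples left out. Dync1i1 was 0.092 with limma voom, 0.013 with library size only, 0.11 in the larger set, 0.22 with the covariate and -0.18 to 0.059 with samples left out. Dync1i2 was 0.064 in the larger set and 0.088 with the covariate, Dync1li1 0.054 and Dync1li2 0.066 with the covariate. With the length trend removed Kif21b was -0.14, Kif5b -0.14 and Kif5c -0.22, and Kif5c was -0.0050 to 0.17 with samples left out. The causes of these shifts were not tested. Members near 1 CPM are limited by depth.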

Other observations

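Tubulins and microtubule-associated proteins, the track on which the motors run, gave 0 calls. Of 11 alpha and beta tubulins tested 9 had a negative log2 fold change (median -0.27). Tubb3, the neuronal beta tubulin, had 499.7 ± 87.5 and 378 ± 156 CPM (shNT and shRNA means ± SD, n = 5 and n = 4), a log2 fold change of -0.40 (FDR = 0.361, edgeR). Tubb2b was positive with 20.8 ± 3.20 and 31.0 ± 5.47 CPM, 0.57 on the log2 scale (FDR = 0.0651, edgeR). Of 12 microtubule-associated protein genes 9 were positive (median 0.17). Map2, the dendritic member, had 369 ± 117 and 759.6 ± 138 CPM (log2 fold change 1.04, FDR = 0.0503, edgeR). Map7, which recruits kinesin-1 to microtubules, had 41.0 ± 18.1 and 127 ± 82.9 CPM (1.63, FDR = 0.058, edgeR). Each was without overlap between the groups. Map2 has 16.4 kb of exon, and its log2 fold change was 0.46 with the exon length trend removed. Map7 had 248 CPM in shRNA replicate 1 against 68.0 to 113 CPM in the other shRNA samples. Its paralog Map7d2 had 434 ± 57.9 and 309 ± 61.95 CPM (-0.49, FDR = 0.095, edgeR), also without overlap, in the opposite direction. Of 13 axonemal dynein genes tested 11 were positive (median 1.08). In 11 of the 13 the highest sample was shRNA replicate 4, as for Dnah10 with 0.332, 0.640, 0.738 and 7.80 CPM with shRNA and 0.345 to 1.56 CPM with shNT. The 7 ciliated cell markers were also highest in that library (101.5 CPM in sum, 19.2 to 33.8 CPM in the others), and their part in these genes was not tested. These genes were named after their values were seen.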
